A study of Bos grunniens with 36 samples.

Results

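PTHLH and 4 genes of calcium pumps, ATP2B2, ATP2B1, ATP2C1 and ATP2A2, were followed in the mammary gland of the yak (Bos grunniens) from late pregnancy to the end of a lactation. The 5 genes were chosen with earlier results of these arrays known and were found through the gene name of the array's probes. In all, 12 probes of the deposited value table carried one of the 5 names, and for each gene the probe with the highest mean over 36 arrays stood for it. They are 5 of 20108 genes or unnamed transcripts that could be tested. Biopsies of the rear glands of 4 female yaks were taken at 9 times, 30 and 15 days before parturition (days -30 and -15) and on days +1, +15, +30, +60, +120, +180 and +240 after it. Each biopsy was put on 1 single-colour array of a cattle design, which gave 4 arrays a day and 36 in all. The yaks carried no transgene and received no agent that the labels name, and their age is not given in the sources used here. The animals keep their numbers, 1 to 4, through all days.

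The lactating gland moves large amounts of calcium from blood to milk while the calcium of its cytosol stays low. PTHLH encodes parathyroid hormone-related protein, which the lactating gland releases into blood and milk and which acts through the receptor PTH1R on bone, where it frees calcium. ATP2B2 encodes a plasma membrane pump of the apical face of the milk-secreting cell and is known as a main route of calcium into milk; ATP2B1 encodes the plasma membrane pump found in most cells, ATP2C1 a pump that loads the Golgi, where casein takes up calcium, and ATP2A2 the pump that loads the endoplasmic reticulum.

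The deposited files hold 2 records of the day of each array that contradict each other. Each column of the value table equals 1 scanner file less a constant, and for 0 of 36 columns is that file deposited under the same sample. For 27 arrays the recorded days differ, for 9 they match, and the recorded animal matches for 0 of 36. The days and animals below are those of the sample titles of the value table, and the values with the days of the scanner files stand beside them. In the table's record the 4 arrays of a day lie on 1 slide and each animal has 1 position on its slides, so day and slide cannot be told apart, nor animal and position. The 75th percentile of the arrays' intensity lay between 4846 and 5756 units at day -30, and every array of days +15, +60, +180 and +240 was dimmer than these, down to 1028 units. Between 68.6% and 89.3% of the spots of an array were well above background. All 7 luminal epithelial markers examined (KRT8, KRT18, KRT19, EPCAM, CDH1, ELF5 and LALBA) were above background on all 36 arrays, and so were all 6 stromal, all 6 endothelial and all 8 myoepithelial markers. In such a bulk tissue fewer cells of a type and less RNA per cell cannot be told apart.

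Levels are given as log2 of the signal over the 75th percentile of the array, which is 0. The scale of a probe depends on its sequence, so levels are compared between days for 1 probe and not between genes. The probes that carry the results are shown here by a stretch of 30 of their 60 bases, 5′ to 3′ on the transcript's strand, since 1 of the 3 ATP2B2 probes did not follow the others. The capitals in the main ATP2B2 probe mark AATAAA, the letters of the usual signal for cleavage and polyadenylation of an mRNA.
PTHLH, main probe: aaatacctgactcaggaaactaacaaggtg
PTHLH, other probe: cattgaatttttcagcagagaccttcagaa
ATP2B2, main probe: acaataattgtaAATAAAgaactcaccatc
ATP2B2, upstream probe: tatgaaggtctagaaaagcctgagtctcga
ATP2B2, downstream probe: aacattagcaaagaacaggaacgtgcccag
ATP2A2, main probe: gtctaatgtattttattgtaacagacattg

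On the cattle assembly UMD 3.1, which the array's annotation uses, the main PTHLH probe lies on the plus strand at chr5:82253879-82253938 and the other at chr5:82258378-82258437. The main ATP2B2 probe lies on the minus strand at chr22:54998188-54998247, the upstream one at chr22:55001246-55001305 and the downstream one at chr22:54995645-54995704. The main probe of ATP2A2 lies at chr17:56512520-56512579, that of ATP2C1 at chr1:140368122-140368181 on the minus strand, and that of ATP2B1 spans chr5:19584009-19584791, 783 bases for a probe of 60, on the minus strand. AATAAA was searched in all 34997 probes of the table: 10.1% hold it on the transcript's strand and 3.57% on the other. The annotation of the array names the transcript and the place in it and gives no coding or untranslated part.

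PTHLH mRNA was low in late pregnancy and high through most of lactation. At day -30 the level of PTHLH was -0.24, -0.95, -0.62 and -1.33 in yaks 1 to 4, and at day -15 it was -1.28, -1.11, -1.04 and -0.43. At day +1 it was 0.05, -0.38, 0.48 and 3.03. All 4 animals were above their own level of both pregnancy days at day +1, yak 4 by far the most. At day +15 the PTHLH level was 3.80, 4.51, 4.55 and 4.91, at day +30 it was 4.13, 3.02, 0.41 and 4.11, and at day +60 it was 4.36, 4.72, 5.15 and 4.26. Days +15 and +60 had the lowest spread between animals of the days after parturition, and yak 3 was low at day +30. At day +120 the level was 3.1, 5.46, 4.09 and 2.47, at day +180 it was 2.55, 4.18, 5.0 and 1.61, and at day +240 it was -0.28, 5.17, 5.22 and 3.24. From day +15 to day +180 every array lay above every array of day -30. At day +240 the ranges overlapped, through yak 1, whose level was back within the range of pregnancy while yaks 2 and 3 were near their highest.

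**Figure D1:**
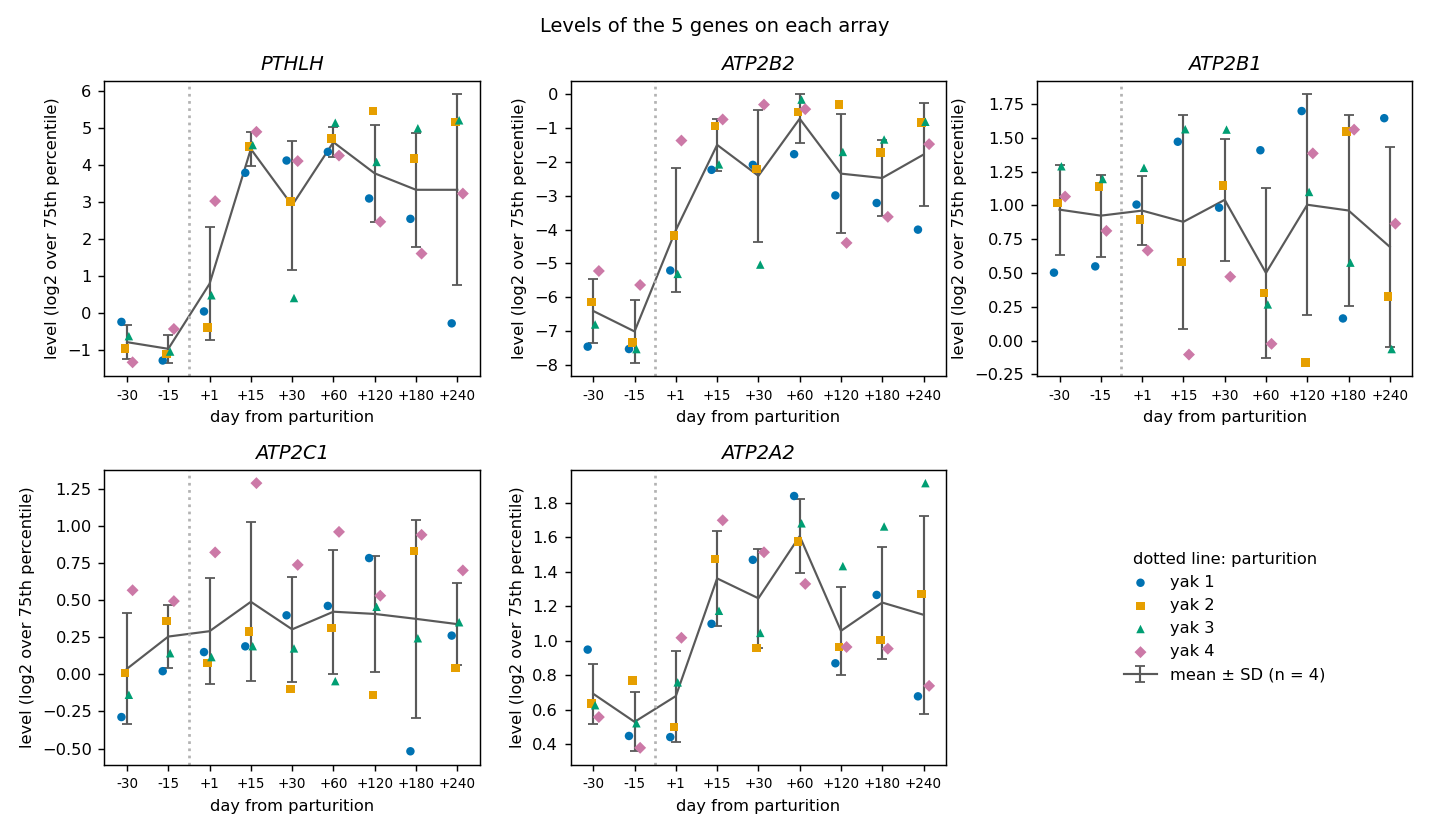
Level of each gene (y axis, log2 of the signal over the array's 75th percentile) by day from parturition (x axis, days in order and not to scale), with 1 point for each yak and the mean with its SD (n = 4). PTHLH and ATP2B2 lie low on both pregnancy days and high at days +15 and +60, ATP2A2 moves the same way over a span of day means of 1.08, and ATP2B1 and ATP2C1 overlap at all days.

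The mean PTHLH level differed from that of day -30 by -0.18 at day -15, 1.58 at day +1, 5.23 at day +15, 3.70 at day +30, 5.41 at day +60, 4.57 at day +120 and 4.12 at days +180 and +240, on the log2 scale and with a standard error of 0.91 for each. At day +60 that is 42.5-fold. PTHLH and ATP2B2 were picked for their difference around parturition in these same arrays, so these differences are a description and carry no test. As background, all 4 arrays lay above all 4 of day -30 for 18% of all genes at day +15, 5.32% at day +30, 16.3% at day +60, 3.45% at day +120 and 5.69% at day +180. Ordered by day means, PTHLH ran from day +60 (4.63 ± 0.40, SD, n = 4) over day +15 (4.44 ± 0.46), day +120 (3.78 ± 1.30), day +180 (3.34 ± 1.54), day +240 (3.34 ± 2.58) and day +30 (2.92 ± 1.75) to day +1 (0.80 ± 1.53), day -30 (-0.78 ± 0.47) and day -15 (-0.96 ± 0.37). Only the steps from day +30 to day +1 and from day +1 to day -30 were larger than the SD of both days they join. The highest level came at day +60 in yak 1, day +120 in yak 2, day +240 in yak 3 and day +15 in yak 4. The other PTHLH probe followed the main one with r = 0.996 over the 36 arrays, a description of 2 probes of 1 mRNA, and lay 6.16 above day -30 at day +15 and 6.44 above it at day +60.

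ATP2B2, the apical pump, had nearly the same course. Its level at day -30 was -7.46, -6.14, -6.81 and -5.22 in yaks 1 to 4, where the probe was well above background in 2 of 4 animals, and at day -15 it was -7.53, -7.35, -7.54 and -5.64, where that held in 1 of 4. At day +1 it was -5.21, -4.18, -5.31 and -1.37. From day +1 on, the main ATP2B2 probe was well above background on every array. At day +15 the level was -2.23, -0.93, -2.07 and -0.74, at day +30 it was -2.08, -2.21, -5.04 and -0.30, and at day +60 it was -1.77, -0.51, -0.15 and -0.44. The same arrays stood out as for PTHLH: yak 4 was the high one at day +1 and yak 3 the low one at day +30. That of yak 4 was the dimmest array of day +1, at 2085 units, and that of yak 3 the brightest of day +30, at 5671 units. At day +120 the ATP2B2 level was -2.99, -0.29, -1.70 and -4.39, at day +180 it was -3.21, -1.72, -1.33 and -3.62, and at day +240 it was -4.0, -0.83, -0.81 and -1.47. From day +15 to day +240 no array overlapped the range of day -30, for which the share over all genes was 7.56% at day +240.

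The mean ATP2B2 level differed from day -30 by -0.61 at day -15 and lay above it by 2.39 at day +1, 4.91 at day +15, 4.0 at day +30, 5.69 at day +60, 4.06 at day +120, 3.94 at day +180 and 4.63 at day +240, with a standard error of 0.88 for each. Since part of the pregnancy arrays lay at background, these differences depend on values near it. The order of its day means was day +60 (-0.72 ± 0.72), day +15 (-1.49 ± 0.77), day +240 (-1.78 ± 1.51), day +120 (-2.34 ± 1.75), day +30 (-2.41 ± 1.96), day +180 (-2.47 ± 1.12), day +1 (-4.02 ± 1.84), day -30 (-6.41 ± 0.96) and day -15 (-7.01 ± 0.92). The steps from day +60 to day +15 and from day +1 to day -30 exceeded the SD of both days, and the ranges of all neighbours in this order overlapped.

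The 3 ATP2B2 probes differed in their course. The upstream probe, 3058 bases nearer the 5′ end of the transcript, followed the main probe with r = 0.928 over the 36 arrays. No pregnancy array of the 8 showed it well above background, and all 4 arrays did at each of days +15 and +60. Its signal was at least 4.69-fold higher at day +15 and at least 7.48-fold higher at day +60 than at day -30, bounds taken against the dimmest signal well above background on each array of day -30. The downstream probe starts 2543 bases after the main one and showed no such course, with r = 0.0818. Its mean level was -5.70 ± 0.15 at day -30, -4.94 ± 0.40 at day +15 and -6.07 ± 0.43 at day +60. All 4 arrays of day -30 showed it well above background, and 0 of 4 did at day +60.

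**Figure D2:**
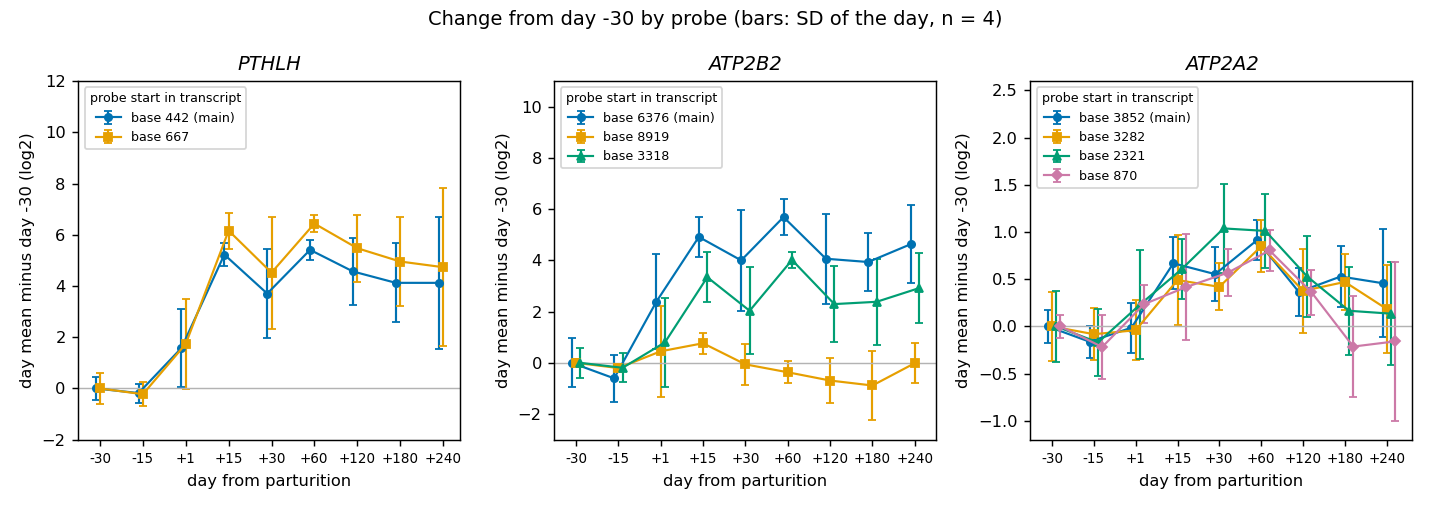
Mean of each probe minus its mean at day -30 (y axis, log2; bars are the SD of 4 arrays) by day (x axis) for the 2 probes of PTHLH, the 3 of ATP2B2 and the 4 of ATP2A2, named by their start in the transcript. Both PTHLH probes run together, the ATP2B2 probe that starts at base 8919 is at 0.76 at day +15 and, not well above background there, at -0.37 at day +60, where the other 2 are at 5.69 and 4.02, and the ATP2A2 probes are all above 0 from day +15 to day +120.

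With the days as the scanner files record them, the levels around parturition differed. PTHLH then lay 1.12 above day -30 at day -15, 5.16 at day +1, 4.31 at day +15, 5.78 at day +30, 5.42 at day +60, 4.74 at day +120, 4.12 at day +180 and 1.55 at day +240 (standard error 0.95). ATP2B2 lay 1.83 above day -30 at day -15, 5.26 at day +1, 6.23 at day +30 and 1.44 at day +240 (standard error 0.97). In that record the means of both genes are near their highest 1 day after parturition and low again at day +240. In the table's record their means are high from day +15 to day +240, though PTHLH in yak 1 was at -0.28 at day +240. The scanner files' day +240 also holds the array of yak 4 at the table's day +240, where PTHLH was at 3.24. The files do not settle which record is right. The level is low at day -30 and high at day +60 in both.

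**Figure D3:**
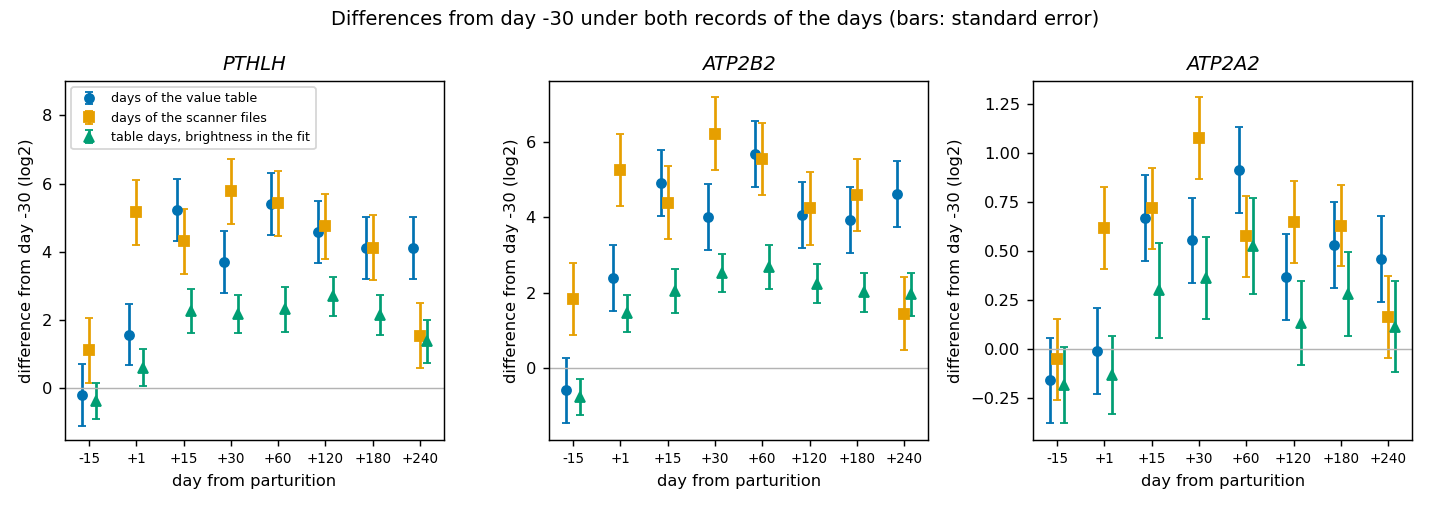
Difference from day -30 (y axis, log2; bars are standard errors) by day (x axis) for PTHLH, ATP2B2 and ATP2A2 with the days of the value table, with the days of the scanner files, and with the table's days and the brightness of the array in the fit. For PTHLH and ATP2B2 the records part most at days +1 and +240, for ATP2A2 at days +1 and +30, and with brightness in the fit the differences of PTHLH at day +60 come down from 5.41 to 2.32.

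Brightness moved with both genes. Over the 36 arrays the r with the log2 of the array's 75th percentile was -0.889 for PTHLH and -0.891 for ATP2B2. With brightness as a covariate PTHLH lay 2.27 above day -30 at day +15, 2.32 at day +60 and 1.38 at day +240, and ATP2B2 2.03, 2.68 and 1.95. The part of brightness in these results was not tested.

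Among days +30 to +240, which were not used to pick the genes, no test between days passed for the 5 genes. Over days +30 to +240 the F test across days gave an adjusted p of 0.530 for PTHLH, 0.395 for ATP2B2, 0.697 for ATP2B1, 0.993 for ATP2C1 and 0.30 for ATP2A2 (limma, Benjamini-Hochberg over all genes), where 10.1% of all genes passed. In the 25 comparisons of the 5 genes between neighbouring days from day +30 on and between days +240 and +30, 0 passed, 1 had an unadjusted p under 0.05 and the lowest adjusted p was 0.196. The share of all genes called was 0.88% between days +30 and +60, 0.89% between +60 and +120, 0.338% between +120 and +180, 0.801% between +180 and +240 and 1.05% between +30 and +240. The intervals are wide: the difference of PTHLH between days +240 and +30 was 0.42 with a 95% interval from -1.43 to 2.27, and that of ATP2B2 was 0.63, from -1.16 to 2.42. With the scanner files' days this difference was -4.23 for PTHLH, -4.79 for ATP2B2 and -0.91 for ATP2A2. In that record day +240 holds the arrays that the table's record places at day -30 for yaks 1, 2 and 3. PTHLH and ATP2B2 were picked with those arrays known, so their values here are a description and carry no test. ATP2A2 was called (adjusted p = 0.00587), in a comparison where 12.6% of all genes were called in that record.

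PTHLH and ATP2B2 moved together from array to array as well as from day to day. The correlation of their levels over the 36 arrays was r = 0.939 (Spearman's rho 0.911), and that of their deviations from the day mean was 0.821. The arrays share label, slide and brightness, and the number is a description. For such deviations brightness had r = -0.823 with PTHLH and -0.829 with ATP2B2. The mean of the 4 caseins, which carry calcium in milk, had r = 0.739 with PTHLH over 36 arrays. On 2 arrays, yak 4 at days +120 and +180, that casein mean was 0.86 and 0.36, while it lay between 3.98 and 8.70 on the other 34. The mean of the 7 luminal markers was also lowest there, at 1.93 and 2.20. PTHLH was at 2.47 and 1.61 on these 2 arrays, the lowest of its day, and ATP2B2 at -4.39 and -3.62, also the lowest. These 2 arrays were also the brightest of their days, at 6466 and 4364 units. They were left out for their low caseins after the data were seen, so the values without them are a description. Without them r was 0.965 between PTHLH and the caseins and 0.943 between PTHLH and ATP2B2. The PTHLH difference from day -30 was then 5.07 at day +120 and 4.76 at day +180.

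**Figure D4:**
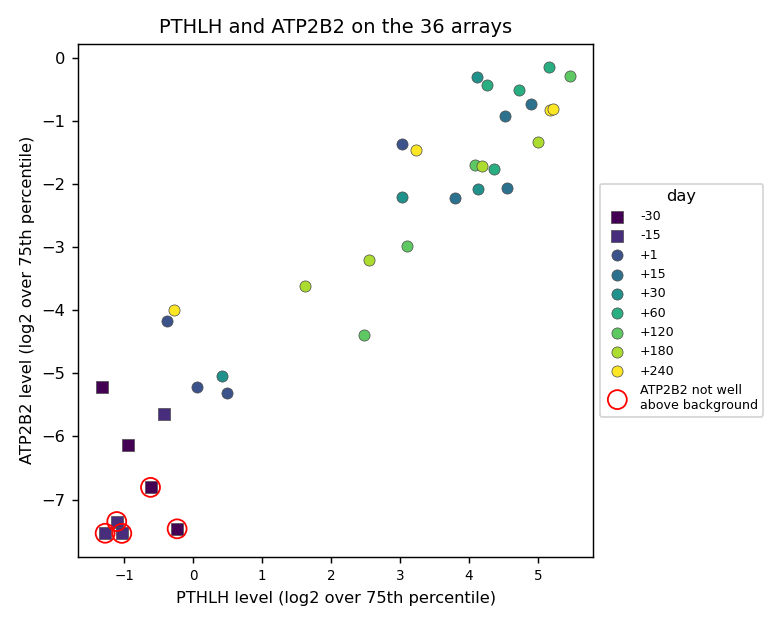
ATP2B2 level (y axis) against PTHLH level (x axis), both in log2 over the 75th percentile of the array, with 1 point for each of the 36 arrays coloured by day; squares are days -30 and -15, and red rings mark arrays where ATP2B2 was not well above background. The 8 pregnancy arrays sit at the lower left, and the arrays of lactation spread from there to the upper right.

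ATP2A2, the pump of the endoplasmic reticulum, rose by less and was called at 2 of 8 days against day -30. Its level was 0.95, 0.64, 0.63 and 0.56 in yaks 1 to 4 at day -30, 1.10, 1.47, 1.17 and 1.70 at day +15, and 1.84, 1.58, 1.68 and 1.33 at day +60. All 4 arrays of both days lay above all of day -30. The difference from day -30 was 0.67 ± 0.22 at day +15 (standard error; adjusted p = 0.0346) and 0.91 ± 0.22 at day +60 (adjusted p = 0.00320), that is 1.59-fold and 1.88-fold, higher in 4 of 4 animals at each. Of all genes 17.9% were called at day +15, 10.2% as higher, and 29.3% at day +60, 12.6% as higher. At the other days 0.00497% (day -15), 6.24% (day +1), 6.38% (day +30), 3.76% (day +120), 17.5% (day +180) and 13.9% (day +240) of all genes were called. Every array of days +15 and +60 was dimmer than every array of day -30, and with brightness in the fit ATP2A2 was at 0.30 at day +15 (adjusted p = 0.505) and 0.53 at day +60 (0.165); the part of brightness was not tested.

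At the other days ATP2A2 stayed within -0.16 and 0.55 of day -30 and was not called. The difference was -0.01 at day +1 (adjusted p = 0.983), 0.55 at day +30 (0.122), 0.37 at day +120 (0.379), 0.53 at day +180 (0.0902) and 0.46 at day +240 (0.154). Over the 9 days the F test was passed by ATP2A2 (adjusted p = 0.00326), as by 42.3% of all genes; without yak 2 its adjusted p was 0.0583 and with brightness in the fit 0.146. The call at day +15 was lost without any 1 of the 4 animals (adjusted p from 0.0558 to 0.194), and that at day +60 held without each (0.0109 to 0.0331). With normexp background correction the ATP2A2 difference at day +60 was 0.77 (adjusted p = 0.0185) where the median of all genes was 0.36, against a median of -0.12 in the main values. The other 3 ATP2A2 probes lay 0.85, 1.01 and 0.80 above day -30 at day +60. In the same order their r with the main probe over the 36 arrays was 0.834, 0.472 and 0.614. Late in lactation they parted from it, with 0.47, 0.17 and -0.21 at day +180 and 0.18, 0.14 and -0.16 at day +240. With the scanner files' days ATP2A2 was called at days +30 (1.08, adjusted p = 0.00132) and +120 (0.65, 0.0431) in place of days +15 and +60. Of all genes 19.4% were called at day +30 and 10.4% at day +120 in that record, with 1.24% at day +15 and 8.47% at day +60.

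ATP2B1 and ATP2C1 gave no call against day -30. The level of ATP2B1, the plasma membrane pump of most cells, was 0.50, 1.02, 1.29 and 1.06 at day -30 and 1.41, 0.35, 0.27 and -0.02 at day +60, and at every day its range overlapped that of day -30. Its differences from day -30 ran from -0.47 ± 0.40 at day +60 (95% interval -1.29 to 0.36) to 0.07 ± 0.40 at day +30 (-0.75 to 0.90), and its adjusted p over the 9 days was 0.935. Its second probe had r = 0.761 with the first over 36 arrays and differed from it in course. The second lay above day -30 by 0.62 at day +1, 0.79 at day +30 and 0.54 at day +120, where the first was at -0.01, 0.07 and 0.04. At the other days it was between -0.33 and 0.36. With the mean of all probes the ATP2B1 difference at day +30 was 0.43 ± 0.41 and was not called. ATP2C1, the Golgi pump, was at -0.29, 0.01, -0.14 and 0.57 at day -30 and 0.46, 0.31, -0.05 and 0.96 at day +60. Its mean was higher at all 8 later days, by 0.22 to 0.45, with a standard error of 0.27, and the adjusted p over the 9 days was 0.886. The interval of its largest difference, at day +15, ran from -0.10 to 1.00, which leaves room for a difference in ATP2C1 that these arrays could not show. In the order of day means no step of ATP2B1 or ATP2C1 exceeded the spread of the days it joins. In all, 2 of the 24 comparisons of these 3 pumps with day -30 passed, 5 had an unadjusted p under 0.05, and of the 24 between neighbouring days 0 passed, with 2 under an unadjusted p of 0.05. The share of all genes called was 1.79% between days -15 and +1, 0.318% between +1 and +15 and 0.0149% between +15 and +30. With the arrays of the 2 days alone ATP2A2 passed between days +1 and +15 (0.68, adjusted p = 0.0335).

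ATP2B1 levels were high on arrays with high stromal markers. Over 36 arrays its r was 0.813 with the mean of the 6 stromal markers and -0.476 with the mean of the caseins, while PTHLH had -0.373 with the same stromal mean. The stromal mean ranged from 3.26 to 3.74 at day -30 and from 2.02 to 3.85 at day +240. What part of the tissue the ATP2B1 signal came from was not tested.

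Of the other genes of calcium handling, 59 of the 79 on the lists could be tested, and 23 passed the F test over the 9 days, a share below the 42.3% of all genes. That count was 10 without yak 1, where 20.8% of all genes passed, 7 without yak 2 (16.3%), 2 without yak 3 (10.5%), 23 without yak 4 (31.5%) and 8 with the scanner files' days (21.7%). Against day -30, 8 were higher and 3 lower at day +15, where 10.2% of all genes were called higher and 7.71% lower, and 15 were higher and 7 lower at day +60, where 12.6% were called higher and 16.7% lower; the median of the lists was 0.30 at day +60 and that of all genes -0.12. Leaving out 1 animal lowered these counts: without yak 1, 2, 3 or 4 in turn, 2, 1, 0 and 6 were higher and 0, 0, 0 and 1 lower at day +15, and 9, 7, 6 and 14 were higher and 4, 6, 2 and 4 lower at day +60. The calls over all genes fell as well, in either direction from 17.9% to 6.69%, 7.17%, 2.96% and 7.84% at day +15. At day +60 they fell from 29.3% to 18.6%, 18.6%, 13% and 21.1%. At day +60, 19 were higher and 2 lower with normexp correction, 5 and 4 after quantile normalization, 0 and 3 with brightness in the fit, and 3 and 1 with the scanner files' days. At day +15 it was 6 and 2 with normexp, 4 and 4 after quantile normalization, 0 and 1 with brightness, and 0 and 0 with the scanner files' days. Over all genes, 25% were called at day +60 with normexp, 21.8% after quantile normalization, 13.8% with brightness and 8.47% with the scanner files' days. In the same order 12%, 18.2%, 3.52% and 1.24% were called at day +15. Of all genes called at day +60, 43% were higher in the main values and 83.9% with normexp correction, and of those called at day +15 57.1% and 69.8%.

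Of 8 receptor and signal genes around parathyroid hormone-related protein, 1 was called at days +15 and +60, GNAS. PTH1R, its receptor, was at -1.31 ± 0.40 at day -30 and -2.16 ± 0.47 at day +60, a difference of -0.85 ± 0.42 (adjusted p = 0.127), and its adjusted p over the 9 days was 0.329. GNAS, the G protein subunit through which that receptor raises cyclic AMP, was higher by 1.08 ± 0.30 at day +15 (adjusted p = 0.0154) and 1.07 ± 0.30 at day +60 (0.00889); after quantile normalization the latter was 0.04. HTR1B, a serotonin receptor, passed the F test (adjusted p = 0.0197) and was called at no day against day -30; at day +60 it was at -0.26, and with normexp correction at 1.39. Of CASR, the calcium-sensing receptor, 2 probes were well above background on 1 of 36 arrays each, and TPH1, which makes serotonin in the gland, on 3 of 36; neither is in the value table.

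Of the 4 other pump genes tested, 1 was called higher and 2 lower at day +60. ATP2C2 encodes the second pump of the secretory pathway, known from secretory epithelia. Its level was 1.69, -0.02, 1.24 and 0.63 at day -30 and 4.07, 3.78, 3.84 and 4.27 at day +60, a difference of 3.1 ± 1.08 (adjusted p = 0.0318), and its adjusted p over the 9 days was 0.104. Its r with PTHLH was 0.786 over 36 arrays and 0.896 without the 2 arrays low in caseins, where it was at -1.86 and -1.18. With brightness in the fit its day +60 difference was -0.86. ATP2A1, the pump of fast muscle, was lower by 0.91 ± 0.30 at day +60 (log2 difference -0.91, adjusted p = 0.0247) and ATP2B4 by 0.94 ± 0.27 (-0.94, adjusted p = 0.010), while with normexp correction ATP2A1 was at -0.01 and ATP2B4 at -0.62, neither called. ATP2A3 was not called.

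Of the pump partners, BSG, or basigin, a subunit of plasma membrane calcium pumps, lay 1.21 ± 0.35 above day -30 at day +60 (adjusted p = 0.0107) and was also called at day +15. After quantile normalization its day +60 difference was 0.33 and was not called. NPTN, neuroplastin, another subunit of these pumps, was not called (0.30 ± 0.16, adjusted p = 0.145).

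Of 15 channel genes, 2 were called higher and 4 lower at day +60, with a median of -0.16. With normexp correction 3 were higher and 1 lower (median 0.64), without yak 3 it was 1 and 1, without yak 1 or yak 4 it was 1 and 2, and with the scanner files' days 1 and 0. The shares of all genes called at day +60 in these fits are given above. ORAI1, the pore of store-operated calcium entry, was at 1.47, 0.74, 1.08 and 0.71 at day -30 and at 3.80, 3.83, 3.16 and 4.04 at day +60, a difference of 2.71 ± 0.71 (adjusted p = 0.00589), with 2.36 at day +15 (0.0231). Its r with PTHLH was 0.902 over 36 arrays. STIM1, the sensor that opens it, was higher at day +180 alone (0.84 ± 0.25, adjusted p = 0.0175). ITPR1, a channel that releases calcium from the endoplasmic reticulum, was higher at day +60 (1.33 ± 0.46, adjusted p = 0.0313), and ITPR3, of the same family, lower (-1.69 ± 0.46, adjusted p = 0.00751); after quantile normalization ITPR1 was at 0.27. CACNA2D1, a subunit of voltage-gated channels, was lower at day +60 (-0.82 ± 0.17, adjusted p = 0.00104), where 1 of 4 arrays was well above background, and with normexp correction it turned to 1.02. TRPV5, an epithelial calcium channel, passed the F test (adjusted p = 0.0219) and was not called at any day against day -30.

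Of 12 calcium-binding proteins of the endoplasmic reticulum and Golgi, 6 were called at day +60, all higher, with a median difference of 0.90. The count was 2 without yak 2 and 2 without yak 3, and 1 with the scanner files' days. Over all genes, 18.6%, 13% and 8.47% were called at day +60 in these fits, against 29.3% in the main values. Cell type markers were also called higher at day +60, 4 of 8 myoepithelial ones (median 0.88), 2 of 6 endothelial ones (0.67) and 3 of 7 luminal ones (0.58). In the other lists 0 of 6 stromal (-0.07), 1 of 7 immune (0.06) and 1 of 7 adipocyte markers (0.67) were called higher, and 1 adipocyte marker lower. Of 4 proliferation markers tested, 0 were higher and 4 lower. Among all genes 12.6% were called higher. The part of these cells in the result was not tested. NUCB2, a calcium-binding protein of the secretory pathway, was higher by 1.98 ± 0.45 (adjusted p = 0.00226), CALR, or calreticulin, by 1.00 ± 0.30 (0.0146), and NUCB1, of the Golgi, by 0.93 ± 0.24 (0.00605). After quantile normalization 1 of the 12, NUCB2, was called at day +60 and CALR was at -0.02, and with brightness in the fit 0 were. RCN2 was lower at day +180 (-0.84 ± 0.28, adjusted p = 0.0376). Of 4 genes of phosphate transport SLC34A2 was higher at day +60 (3.41 ± 1.30, adjusted p = 0.0475). SLC34A2 did not pass the F test over the 9 days (adjusted p = 0.119), and its level at day -30 ran from -6.34 to -2.31. Of the 2 sodium-calcium exchangers tested neither was called. CYP2R1, an enzyme that hydroxylates vitamin D in its first step, was lower at 5 of 8 days, among them day +60 (-1.79 ± 0.31, adjusted p = 0.000166) and day +240 (-2.03 ± 0.31, adjusted p = 0.000158), and also with brightness in the fit (-1.47 at day +60, adjusted p = 0.00643). PDIA3, listed for its part in vitamin D signalling, passed the F test (adjusted p = 0.0175) and was called at no day against day -30.

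The caseins are the cargo with which calcium leaves the Golgi. CSN3 (kappa-casein) was higher by 2.93 ± 0.80 at day +60 (adjusted p = 0.00784) and CSN1S2 by 5.50 ± 1.45 (0.00644); CSN1S1 was at 3.40 ± 1.39 (0.0638) and CSN2 (beta-casein) at 2.77 ± 1.48 (0.154). With brightness in the fit the median of the 4 was -0.71 at day +60, where PTHLH was at 2.32 and ATP2B2 at 2.68. PTHLH and ATP2B2 were picked for their difference around parturition in these arrays, so their values beside the caseins are a description. The part of brightness was not tested.

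**Figure D5:**
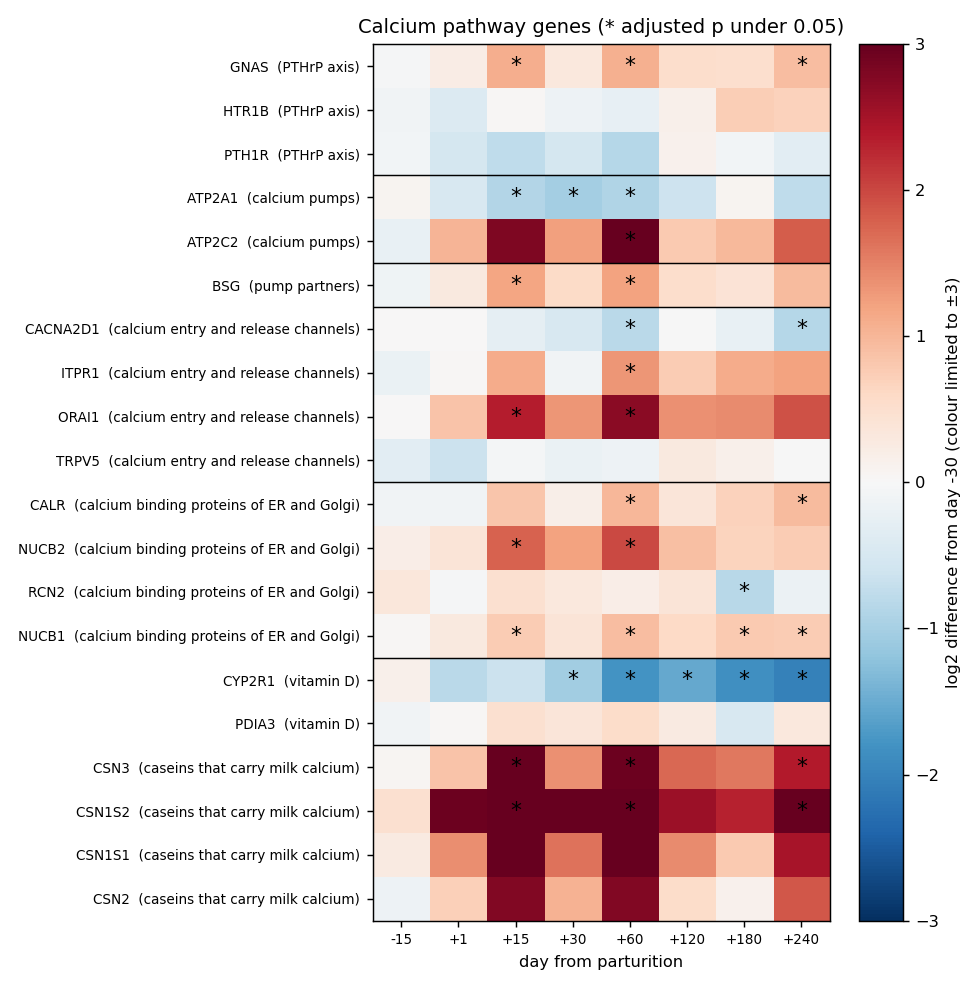
Difference from day -30 (colour, log2, red higher and blue lower, limited to ±3) for 20 genes of calcium handling (rows, grouped by list) on 8 days (columns); stars mark an adjusted p under 0.05. Stars are most frequent at day +60, followed by days +15 and +240. Rows for ORAI1, ATP2C2 and the caseins are mostly red, though ATP2C2 has a star at day +60 alone and CSN1S1 and CSN2 have none. The CYP2R1 row is blue from day +1 on, with stars from day +30 to day +240.

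The genes with the pattern most like each of the 5 were taken by Pearson's r over the 36 arrays among 13454 genes with a symbol; r is a description, over arrays that share slide and brightness. For PTHLH they were AGPAT6 (r = 0.942), an acyltransferase of triglyceride synthesis, PHYHIPL (0.940), NELL2 (0.938), a secreted glycoprotein, SRP54 (0.936), a subunit of the signal recognition particle, and SLC1A5 (0.934), a carrier of neutral amino acids. For ATP2B2 they were NELL2 (0.945), NT5E (0.929), which makes adenosine, SRP54 (0.927), CD14 (0.924), a receptor for bacterial lipopolysaccharide, and ARFGAP3 (0.924), a regulator of Golgi transport. NELL2 and SRP54 stand on both lists. ATP2A2 was most like SLC17A9 (0.913), DNAJB11 (0.900), a chaperone of the endoplasmic reticulum, GOLGA3 (0.892), TFG (0.886) and PROSC (0.883). For ATP2B1 the nearest were APBB1IP (0.853), SFRP1 (0.851), PLSCR4 (0.845), LUM (0.836), a proteoglycan of connective tissue, and HEPH (0.836). ATP2C1 had the weakest neighbours, NPTN (0.780), DIMT1 (0.766), KLHL2 (0.724), FOXN2 (0.713) and CDC42SE2 (0.712).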

How the data were processed

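The members and gene lists were chosen with earlier results of these data known. Per the file headers, the authors scanned with Feature Extraction version 10.7.3.1, which gave background-subtracted intensity and marks, an other unit of 0 or 1, for spots well above background. The authors deposited log2 values of 34997 of 43653 probes, made with GeneSpring 12 and tested with JMP Genomics 7 per the labels; comparing them with the scanner intensity showed that each array's 75th percentile is 0 (within 0.0072). The submitters' labels say cDNA was primed with oligo(dT), and that left and right rear glands alternated, which is not recorded array by array.

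Here a probe was kept if well above background on at least 3 of 4 arrays of a day (34995 probes), and the brightest probe stood for each gene. Days were fitted with limma 3.58.1 (R 4.3.3, statmod 1.5.0, data.table version 1.17.8), animal as a random block (consensus correlation 0.0531), with two-sided tests and Benjamini-Hochberg adjustment within each comparison at 0.05. The pairing rests on the animal numbers of the sample titles. Across genes, residuals around each day's mean correlated at 0.152 within an animal and -0.0509 between animals, on average. Residuals of a day sum to 0, so the value between animals largely follows from the other. Animal and position on the slide cannot be told apart in it. The number of arrays limits the precision. The code was tested on simulated data: at day +60 against day -30 it called 82 of 100 genes changed by 2 (log2), 96 of 100 changed by 4 and 13 of 19908 unchanged. The simulated noise was independent, with 1 SD a gene for all days and no effect of animal or brightness. Changes smaller than 2 were not simulated, so these rates do not carry over to the comparisons without a call. Genes named are the 5, up to 4 a list that passed the F test over all days in order of F, ATP2C2, CASR, PTH1R, TPH1 and the caseins, and the 5 genes of most like pattern for each. ITPR3, ATP2B4, ATP2A3, STIM1, SLC34A2 and NPTN were added after their values were seen. Of 13454 gene symbols, 11574 are among the yak symbols of the reference, as are all 5. Python 3.11.15 (numpy 2.4.6, pandas 2.3.3, scipy 1.17.1, matplotlib 3.10.9) was used. Alternatives were other background correction, normalization, filters and probes, the block, brightness, the record of days and each animal left out. 0 spots were saturated. For 1 listed gene the result is not reported here.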

Additional observations from a re-analysis of the deposited data

Results flagged for a closer look

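In 4 of 45 groups of 4 arrays (5 genes at 9 days) 1 array lay far from the other 3, by Dixon's criterion, which chance meets in about 1 of 20 groups. ATP2B2 at day -15 was -5.64 in yak 4 and between -7.54 and -7.35 in the others. ATP2C1 was 0.82 in yak 4 at day +1, against 0.08 to 0.15, and 1.29 in yak 4 at day +15, against 0.19 to 0.29. ATP2A2 at day +120 was 1.43 in yak 3, against 0.87 to 0.96.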

How the results depend on the processing

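The genes called over the 9 days were 8502 and ranged from 2118 to 6326 when 1 animal was left out, and those over days +30 to +240 were 2031 and ranged from 144 to 1330. With normexp background correction the counts were 4657 and 88, after quantile normalization 7585 and 1329, with brightness in the fit 8101 and 4795, and with the scanner files' days 4370 and 1528. Of the 2 calls of the 3 other pumps against day -30, 1 was left with normexp, 0 with brightness, and 1 without any 1 animal (range 1 to 1), while the mean of all probes gave 3, with ATP2A2 at day +30 added (0.65, adjusted p = 0.0297). Between neighbouring days the 0 calls became 1 with the arrays of the 2 days alone, and the 0 calls of the 5 genes from day +30 on became 3 with the scanner files' days, all between days +30 and +240, where 12.6% of all genes were called against 1.05% in the main values. In that record day +240 holds arrays of the table's day -30, with which PTHLH and ATP2B2 were picked, so for these 2 genes the calls are no test. Without a replicate block 7435 and 1423 genes were called, and with the animal as a fixed replicate block 8795 and 2454; neither changed the counts of calls among the 5 genes. Leaving out the 2 arrays low in caseins, chosen after the data were seen, gave 10222 and 2737. Of 22 differences of the 3 other pumps that were not called, 12 had the other sign under at least 1 alternative. The slide as a block could not be fitted, since each slide holds 1 day. The causes of these changes were not tested. Values of ATP2B2 in pregnancy are limited by background.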

Other observations

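Yak 4 had the highest ATP2C1 level of the 4 animals on 8 of 9 days, with a mean over the days of 0.78 ± 0.25 (SD over 9 days), against 0.16 ± 0.39 in yak 1, 0.19 ± 0.30 in yak 2 and 0.17 ± 0.18 in yak 3. Of all 20108 genes, 1.70% had 1 animal highest on at least 8 of the 9 days. This was noticed in the values and is given with no test. Each animal has 1 position on its slides, and animal and position cannot be told apart. The scanner files record another animal for these arrays.

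Of 6 proliferation markers 4 could be tested (MKI67 and TOP2A could not), and their mean was -1.25 ± 0.40 at day -30 and -4.85 ± 0.55 at day +60 (SD, n = 4), with all 4 called lower at day +60. Its r with PTHLH was -0.686 over 36 arrays and -0.144 for deviations from the day mean, while that of ATP2B2 with PTHLH was 0.821 for such deviations. That value is not particular to ATP2B2: ORAI1 had 0.921 with PTHLH, ATP2C2 0.874 and the array's brightness -0.823.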
